A study of Homo sapiens with 9 samples.

Results

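The transcripts described here are 10 long noncoding RNAs whose genes carry small nucleolar RNAs (snoRNAs), mostly in introns: GAS5, SNHG1, SNHG5, SNHG7, SNHG8, SNHG12, SNHG15, SNHG16, ZFAS1 and DANCR. They were chosen by name, as snoRNA host RNAs known to be sensitive to translation and RNA decay, by a rule that uses no measured value, although earlier results of these data were known at the time. All 10 were among the 22587 genes of the table. Of these, 9 passed the filter on low values (a mean of at least 0.5 FPKM, a measure of level in fragments relative to gene length and library depth) and were among the 11880 genes tested. SNHG15 was not tested.

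RNA-seq was performed on HepG2 cells, a human liver cancer cell line grown in high-glucose DMEM with fetal bovine serum. Each group had 3 libraries: cells with glutamine (Gln) added, cells deprived of Gln for 12 h and cells deprived of Gln for 24 h. The labels give no genetic change in any of the 3 groups. The labels name GlutaMAX, a stable Gln dipeptide, as the supplement of the Gln-added cultures, whereas the treatment protocol places it in the Gln-free medium of the deprivation. How long the Gln-added cultures were kept is not given. The labels do not say whether the replicates were separate cultures, so the p-values measure only the spread between these libraries, which may be technical. The comparisons share libraries: the 3 Gln-added libraries serve both deprivation times.

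A host gene of this kind yields 2 products. The introns are trimmed into snoRNAs, which guide the modification of ribosomal and other stable RNAs: C/D box snoRNAs guide 2′-O-methylation and H/ACA box snoRNAs guide pseudouridylation. The spliced exons leave the nucleus, and in several of these hosts they begin with an oligopyrimidine tract like that of ribosomal protein mRNAs, engage ribosomes over short reading frames and are then degraded by nonsense-mediated decay (NMD). GAS5 was named for its accumulation in growth-arrested cells, and blocking translation is known to raise the spliced form of GAS5 and of related hosts. Amino acid shortage is known to slow translation through GCN2 and the phosphorylation of eIF2 alpha (the integrated stress response) and through mTORC1. Neither translation nor RNA stability was measured in these libraries.

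The transcript starts are shown because the tract at the start is the feature by which such RNAs are grouped with the ribosomal protein mRNAs. Each line gives 20 bases before the annotated start and 30 bases from it, on the strand of the gene, from the hg38 assembly (GRCh38). Capitals mark the first C followed by at least 4 pyrimidines that begins within 10 bases of the start. The start of GAS5 is that of the GENCODE canonical transcript, and the others are RefSeq starts. The intervals are chr1:173867960-173868009 (minus strand) for GAS5, chr20:49278622-49278671 (plus) for ZFAS1, chr6:85678704-85678753 (minus) for SNHG5, chr4:118278742-118278791 (plus) for SNHG8, chr17:76557744-76557793 (plus) for SNHG16, chr9:136728155-136728204 (minus) for SNHG7 and chr11:62855856-62855905 (minus) for SNHG1.
GAS5: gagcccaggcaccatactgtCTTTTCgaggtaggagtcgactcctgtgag
ZFAS1: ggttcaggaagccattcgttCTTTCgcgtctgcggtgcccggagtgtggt
SNHG5: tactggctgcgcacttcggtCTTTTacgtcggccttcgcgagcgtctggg
SNHG8: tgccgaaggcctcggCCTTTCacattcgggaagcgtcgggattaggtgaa
SNHG16: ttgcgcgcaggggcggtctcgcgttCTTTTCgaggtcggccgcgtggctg
SNHG7: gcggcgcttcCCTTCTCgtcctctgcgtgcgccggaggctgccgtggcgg
SNHG1: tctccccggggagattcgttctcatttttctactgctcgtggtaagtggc

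In GAS5, ZFAS1 and SNHG5 the tract began at the annotated start shown. Of these, only ZFAS1 has the same start in the RefSeq promoter table and in the GENCODE canonical transcript. The RefSeq gene record of ZFAS1 begins further upstream. At the GENCODE start of SNHG5 no tract of this definition was found. At the start of SNHG1 shown here no tract of this definition was found, while one began 7 bases before the GENCODE start of the same gene. Over the RefSeq promoter table (GRCh38.p14, 250 bases before to 50 after each start), 9 of the 10 hosts had a window. In 7 of these 9 a pyrimidine tract began within 10 bases of the start: SNHG5, SNHG7, SNHG8, SNHG12, SNHG16, ZFAS1 and DANCR. The 7 hosts whose starts are shown are those called higher at 12 h in the tests below. SNHG12 and DANCR were not called at 12 h and are not shown. The tract of SNHG12 began 1 base before the start and was 12 bases long, and that of DANCR began at base 2. Among those shown, the tract began at the start in SNHG5 and ZFAS1, 5 bases before it in SNHG8 and at base 6 in SNHG16. In SNHG7 the marked tract began 10 bases before the start and ended before it, and a further one (CCTCT) is left unmarked. That one began 1 base before the start and ran across it. The marked bases of SNHG7 are part of a longer run that reaches further upstream. The RefSeq start of GAS5 lies upstream of the GENCODE start used above, and its window had no tract. The same pattern was found in 33.5% of all 35116 windows. On either strand, the E-box CACGTG was found in 1 of the 9 windows (SNHG7), against 7.26% of all windows. TGATGCA, a core of the element bound by ATF4 and CEBP factors, was in none of the 9 windows and in 2.63% of all, and the AP-1 site TGACTCA in none and in 4.95%. A run pattern for G-quadruplexes (at least 4 runs of 3 or more G, with 1 to 7 bases between them, on either strand) was in none of the 9 windows and in 25% of all. The absence of a match says only that these letters are not in these windows.

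The hosted snoRNAs are shown for 3 of the hosts whose levels moved most, with the box motifs in capitals (TGATGA and CTGA for the C/D class, ACA for the H/ACA class). SNORD44 lies in GAS5 (chr1:173865968-173866028, minus strand), SNORD12C in ZFAS1 (chr20:49278945-49279023, plus) and SNORA24 in SNHG8 (chr4:118279190-118279320, plus).
SNORD44: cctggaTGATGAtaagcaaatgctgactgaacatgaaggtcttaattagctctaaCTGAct
SNORD12C: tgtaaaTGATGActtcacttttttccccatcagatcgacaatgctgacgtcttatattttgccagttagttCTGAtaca
SNORA24: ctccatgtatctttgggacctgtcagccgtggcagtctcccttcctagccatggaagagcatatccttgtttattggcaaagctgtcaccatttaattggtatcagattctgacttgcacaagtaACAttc

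The RefSeq annotation placed 37 snoRNAs within the 10 host genes, 27 of the C/D class, 9 of the H/ACA class and 1 without a class in its name. GAS5 held 11 and SNHG1 held 9. SNHG12 held 4, ZFAS1 and SNHG16 held 3 each, SNHG5 and SNHG7 held 2 each, and SNHG8, SNHG15 and DANCR held 1 each. No base of 35 of the 37 lay in an exon of the canonical host transcript. The exceptions were SNORA103 in GAS5, with 2 bases in an exon, and SNORA9, the 1 snoRNA of SNHG15, with all 133 bases in an exon. None of the 37 had a row in the deposited table, so the values below are those of the host transcripts only.

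**Figure D1:**
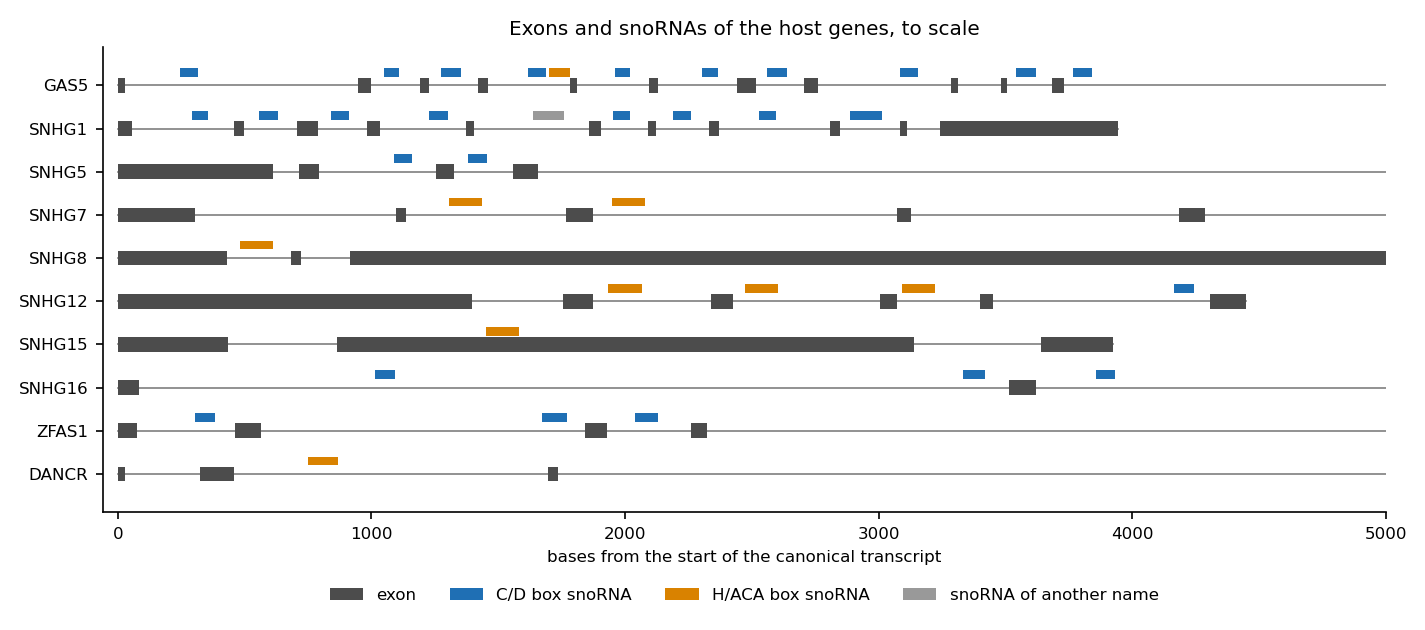
The x axis gives bases from the start of the canonical transcript of each of the 10 host genes, to scale and up to 5000 bases, and exons further on are not drawn. Grey blocks are exons, blue blocks are C/D box snoRNAs, orange blocks are H/ACA box snoRNAs and the light grey block is a snoRNA with another name. The 9 snoRNAs of SNHG1 alternate with short exons. So do most of the 11 of GAS5, where SNORD77 and SNORA103 have no exon between them. SNHG8, SNHG15 and DANCR carry 1 each.

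The 9 libraries held between 29618604 and 36258158 fragments on genes. HepG2 cells are tumour cells of hepatocyte character, and the 8 hepatocyte markers examined were all detected, with ALB (albumin) at 3230 to 3908 FPKM. Their summed level was 7381 to 7481 FPKM with Gln and 6258 to 6581 FPKM after 24 h. Of the 6 markers of other cell types in the table, CD68 (21.2 to 36.3 FPKM) and ACTA2 (21.5 to 36.5 FPKM) were detected, PECAM1 was at most 0.343 FPKM, VWF at most 0.052 FPKM, and COL1A1 and COL1A2 were at 0 in all 3 Gln-added libraries. Their summed level fell from 71.2 to 73.2 FPKM with Gln to 43.0 to 47.7 FPKM after 24 h, and whether this has a part in the results below was not tested. In bulk RNA, fewer cells expressing a transcript and less RNA per cell cannot be told apart. The library of 24 h replicate 2 had the lowest value of its group in 9 of the 9 hosts tested, against 39.8% of all tested genes, and its summed level of ribosomal protein mRNAs was also the lowest of the 24 h group (34040 FPKM, against 39220 and 37410). Results that turn on this library are given with and without it.

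Per length, SNHG5 was the most abundant host in every group, at 247 ± 20.4 FPKM with Gln (SD, n = 3), 297 ± 23.3 FPKM at 12 h and 275 ± 33.2 FPKM at 24 h. With Gln, a middle group followed in the order SNHG16 (76.8 ± 1.20 FPKM), GAS5 (72.9 ± 2.51), ZFAS1 (71.4 ± 3.10), DANCR (69.4 ± 2.21), SNHG1 (65.2 ± 0.798) and SNHG8 (53.2 ± 1.22). Within this order the library values of GAS5 and ZFAS1 overlapped, and so did those of ZFAS1 and DANCR, whereas the other neighbours did not. SNHG7 (14.6 ± 0.950 FPKM) and SNHG12 (9.82 ± 0.400 FPKM) were lower. After Gln deprivation ZFAS1 took the second place (150.5 ± 8.79 FPKM at 12 h and 138 ± 8.30 FPKM at 24 h), GAS5 the third and SNHG8 the fourth. At 12 h the values of SNHG8 and SNHG1 overlapped, and at 24 h those of SNHG8 and SNHG16 and those of SNHG16 and SNHG1. These levels and their order rest on the gene lengths behind the deposited FPKM. These were solved as 507 bases for the shortest of the hosts (SNHG5) and 2693 bases for the longest (SNHG7). The GENCODE canonical transcript of SNHG5 has 1316 exonic bases, and that of SNHG16 has 498, against 2538 solved. In fragments, SNHG16 and not SNHG5 was the highest host in every library (7075 against 4670 in Gln-added replicate 1).

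The summed level of the 10 hosts was 645.8 to 701 FPKM in the Gln-added libraries, 911.5 to 999.5 FPKM at 12 h and 764 to 903 FPKM at 24 h, so that the Gln-added range lay below both deprived ranges. The highest share of all FPKM that they took in a library was 0.182% with Gln and 0.262% at 12 h.

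The question of the comparison at 12 h is how the hosts stood after the shorter Gln deprivation. Of the 9 hosts tested, 7 rose (adjusted p under 0.05) and none fell, against 60.2% of all tested genes called at 12 h, 29.1% higher and 31.0% lower. ZFAS1 and SNHG7 rose by 2.11 and 2.06 times, SNHG8, GAS5 and SNHG1 rose by 1.45 to 1.80 times, and SNHG5 and SNHG16 rose by 1.20 and 1.12 times. DANCR and SNHG12 did not pass the test, and all 9 values were above 0. In 7 of 9 hosts all 12 h libraries lay above all Gln-added libraries, against 32.8% of tested genes, and in none did they all lie below, against 34.4%. The median difference over the 9 hosts was 0.54 on the log2(FPKM + 0.1) scale, beside -0.02 over all tested genes. At 24 h, 5 of the 9 rose and 1 fell, against 64.7% of tested genes called, 33.0% higher and 31.7% lower, and the groups did not overlap for the same number (higher in 5, lower in 1, against 35.7% and 34.1% of tested genes). The median over the 9 hosts was then 0.15, the value of SNHG5, beside 0.01 over all tested genes. These 24 h figures turn in part on 24 h replicate 2. Without it, SNHG5 was called higher (0.25, limma adjusted p = 0.0191) and DANCR was no longer called (-0.13, adjusted p = 0.0932).

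Among the hosts that carry mainly C/D box snoRNAs, ZFAS1 changed most. ZFAS1 lies at the start of the ZNFX1 gene on the opposite strand and hosts the SNORD12 family. Its level was 73.9, 67.9 and 72.3 FPKM in the 3 Gln-added libraries, 160.0, 143 and 149 FPKM at 12 h and 144, 129 and 142 FPKM at 24 h. All 6 deprived libraries lay far above the Gln-added libraries, and the 12 h and 24 h values overlapped. The difference from Gln-added cells on the log2(FPKM + 0.1) scale was 1.07 (SE 0.056, adjusted p = 8.28e-08) after 12 h and 0.95 (SE 0.056, adjusted p = 1.25e-07) after 24 h. At 12 h ZFAS1 ranked 202 from the top among the 11880 tested genes. Its 24 h level differed from the 12 h level by -0.12 (95% interval -0.25 to 0.00, adjusted p = 0.155).

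GAS5, the host with the most snoRNAs, is the best known RNA of the group for its coupling to growth and translation. It stood at 75.1, 70.1 and 73.4 FPKM with Gln, at 120.5, 109.7 and 117 FPKM at 12 h and at 118, 99.8 and 121 FPKM at 24 h. The 24 h replicate 2 library was the lowest of the deprived libraries and was still above every Gln-added library. On the log2(FPKM + 0.1) scale GAS5 rose by 0.66 (SE 0.067, adjusted p = 1.09e-05) after 12 h, and the rise after 24 h was 0.62 (adjusted p = 1.32e-05), ahead of 94.5% of tested genes at 12 h. Between 24 h and 12 h the difference was -0.04 (95% interval -0.19 to 0.11).

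SNHG1, the host of SNORD22 and the neighbouring C/D box snoRNAs, rose at 12 h and stood close to the Gln-added level at 24 h. Its FPKM were 66.1, 64.95 and 64.6 with Gln, 96.2, 94.3 and 93.5 at 12 h and 71.7, 68.95 and 73.1 at 24 h. The 3 groups did not overlap: all 12 h libraries were highest, all Gln-added libraries lowest and the 24 h libraries in between. On the log2(FPKM + 0.1) scale the rise was 0.54 after 12 h (SE 0.033, adjusted p = 2.69e-07) and 0.13 after 24 h (adjusted p = 0.00608). The 24 h level differed from the 12 h level by -0.41 (95% interval -0.48 to -0.34, adjusted p = 2.35e-05), and only 2.67% of tested genes had a lower value in this comparison. SNHG1 starts 51 bases from the start of SLC3A2, which is transcribed in the opposite direction and encodes the heavy chain of amino acid transporters. SLC3A2 stood at 66.8 ± 2.12 FPKM with Gln, 150.1 ± 7.32 FPKM at 12 h and 141 ± 8.15 FPKM at 24 h (SD, n = 3). Its log2 differences were 1.16 and 1.07 at the 2 times (adjusted p = 2.05e-08 and 2.31e-08), while its 24 h level differed from its 12 h level by -0.09 (adjusted p = 0.231).

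SNHG5 and SNHG16 showed smaller differences. SNHG5, the host of the SNORD50 pair, was at 258, 224 and 260.3 FPKM with Gln, 310.5, 270.3 and 311 FPKM at 12 h and 303, 238 and 283 FPKM at 24 h. In each group replicate 2 was lowest, and the 12 h libraries lay above all Gln-added libraries while the 24 h libraries overlapped with them. The rise of SNHG5 at 12 h was 0.27 (SE 0.092, adjusted p = 0.0277) on the log2(FPKM + 0.1) scale, and it no longer passed the test without Gln-added replicate 2 (0.19, adjusted p = 0.112), 12 h replicate 1 (0.23, adjusted p = 0.0873) or 12 h replicate 3 (0.23, adjusted p = 0.0843). At 24 h the value was 0.15 (adjusted p = 0.181). It was 0.25 without 24 h replicate 2 (adjusted p = 0.0191) and 0.073 without 24 h replicate 1.

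SNHG16 hosts SNORD1A, SNORD1B and SNORD1C. It stood at 78.1, 76.5 and 75.7 FPKM with Gln, 86.9, 84.8 and 85.85 FPKM at 12 h and 76.5, 67.9 and 74.3 FPKM at 24 h. The 12 h libraries were above all others, and the 24 h libraries overlapped with the Gln-added libraries. SNHG16 rose by 0.16 at 12 h (SE 0.044, adjusted p = 0.0083), its value at 24 h was -0.08 (adjusted p = 0.15), and its 24 h level differed from the 12 h level by -0.24 (95% interval -0.33 to -0.14, adjusted p = 0.00378), all on the log2(FPKM + 0.1) scale. The value at 24 h was -0.11 without 24 h replicate 1 (adjusted p = 0.0393) and -0.025 without 24 h replicate 2.

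Of the hosts that carry mainly H/ACA box snoRNAs, SNHG7 and SNHG8 rose at both times, while DANCR and SNHG12 did not and SNHG15 could not be tested. SNHG7, the host of a pair of H/ACA box snoRNAs, was at 15.65, 14.02 and 14 FPKM with Gln, 30.3, 30.4 and 29.2 FPKM at 12 h and 31.8, 25.5 and 29.3 FPKM at 24 h. Every deprived library was above every Gln-added library, and the deprived groups overlapped with each other. On the log2(FPKM + 0.1) scale SNHG7 rose by 1.04 after 12 h (SE 0.074, adjusted p = 8.33e-07), and its rise after 24 h was 0.98 (adjusted p = 8.96e-07), ahead of 98.1% and 96.6% of tested genes.

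SNHG8, the host of SNORA24, was at 54.1, 51.8 and 53.7 FPKM with Gln, 102, 94.8 and 91.8 FPKM at 12 h and 83.7, 69.4 and 81.2 FPKM at 24 h. The 3 groups were separate, with the 24 h libraries between the others. SNHG8 rose by 0.85 after 12 h (SE 0.066, adjusted p = 1.57e-06), its rise after 24 h was 0.55 (adjusted p = 3.11e-05), and its 24 h level differed from the 12 h level by -0.30 (95% interval -0.45 to -0.16, adjusted p = 0.00948) on the log2(FPKM + 0.1) scale.

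DANCR, the host of SNORA26 and named for its antagonism of differentiation, was the 1 host that fell. Its FPKM were 69.55, 67.1 and 71.5 with Gln, 83.1, 74.0 and 70.8 at 12 h and 64.3, 57.3 and 62.5 at 24 h. The 24 h libraries were below all others, and the 12 h libraries overlapped with the Gln-added libraries. On the log2(FPKM + 0.1) scale the difference was 0.13 at 12 h (SE 0.062, adjusted p = 0.0972), -0.18 at 24 h (adjusted p = 0.0257) and -0.31 between 24 h and 12 h (95% interval -0.44 to -0.17, adjusted p = 0.00621). The call at 24 h was lost without Gln-added replicate 1 (adjusted p = 0.0624), Gln-added replicate 3 (adjusted p = 0.0859) or 24 h replicate 2 (-0.13, adjusted p = 0.0932), while the 12 h difference passed the test without 12 h replicate 3 (0.18, adjusted p = 0.0346) and was 0.061 without 12 h replicate 1.

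SNHG12, which hosts SNORA16A, SNORA44, SNORA61 and SNORD99, was at 10.3, 9.496 and 9.70 FPKM with Gln, 10.15, 10.55 and 9.56 FPKM at 12 h and 10.1, 8.535 and 9.90 FPKM at 24 h. The 3 groups overlapped. On the log2(FPKM + 0.1) scale its difference was 0.04 (95% interval -0.11 to 0.19) after 12 h and -0.05 (95% interval -0.20 to 0.10) after 24 h. With single libraries left out, its 12 h difference ranged between 0.0056 and 0.076, and its 24 h difference had a lowest value of -0.093 and turned to 0.026 without 24 h replicate 2. SNHG15, the host of SNORA9, had 1 fragment in each of 3 libraries (Gln-added replicate 1, and 12 h replicates 1 and 3) and 0 in the other 6, where a count of 0 allows up to 3 fragments, or 0.0858 to 0.0936 FPKM. This limit covers counting error only, and no fold is given for SNHG15.

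**Figure D2:**
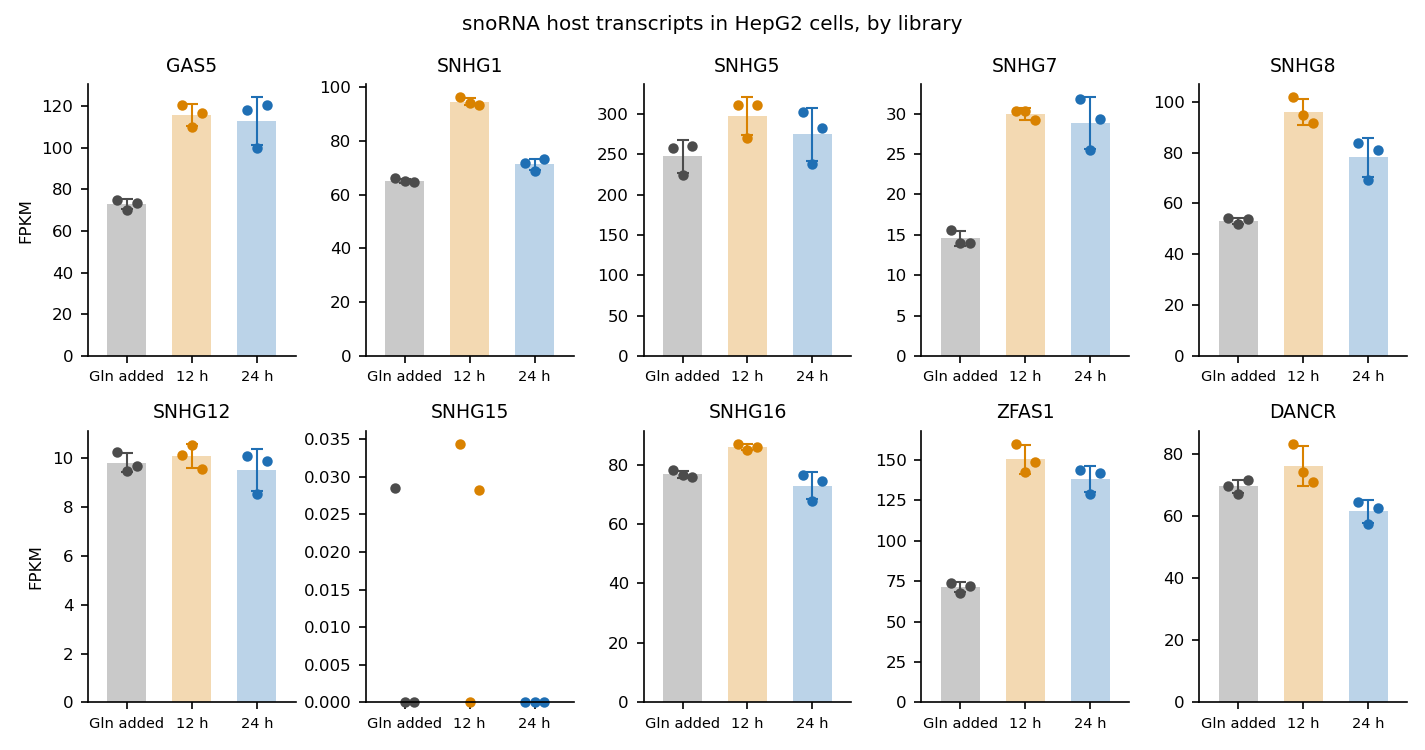
Each panel shows the FPKM (y axis, from 0, with its own scale) of 1 host in the 9 libraries, with points for libraries, bars for the mean of 3 and error bars for the SD, and points alone for SNHG15. ZFAS1, SNHG7, SNHG8 and GAS5 lie above the Gln-added libraries at both times, SNHG1 comes down to 68.95 to 73.1 FPKM at 24 h, and SNHG15 has 1 fragment or none in a library.

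The direct comparison of the deprivation times asks which hosts moved between 12 h and 24 h. SNHG1, SNHG8, SNHG16 and DANCR were lower at 24 h and none of the 9 was higher, against 20.1% of tested genes called, 10.5% lower and 9.57% higher. For the same 4 hosts the 24 h libraries all lay below the 12 h libraries, against 16.9% of tested genes. GAS5, SNHG5, SNHG7, SNHG12 and ZFAS1 had values from -0.12 to -0.04 on the log2(FPKM + 0.1) scale and did not pass the test. All 9 values were below 0 with every library included, but not without 24 h replicate 2, where GAS5 stood at 0.045 and SNHG7 at 0.026, and SNHG5, SNHG12 and ZFAS1 at -0.019, -0.012 and -0.071. The median over the 9 hosts was -0.12, beside 0.02 over all tested genes. Without the same library, the 4 calls kept their direction, with values of -0.39 for SNHG1, -0.22 for SNHG8, -0.19 for SNHG16 and -0.26 for DANCR.

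**Figure D3:**
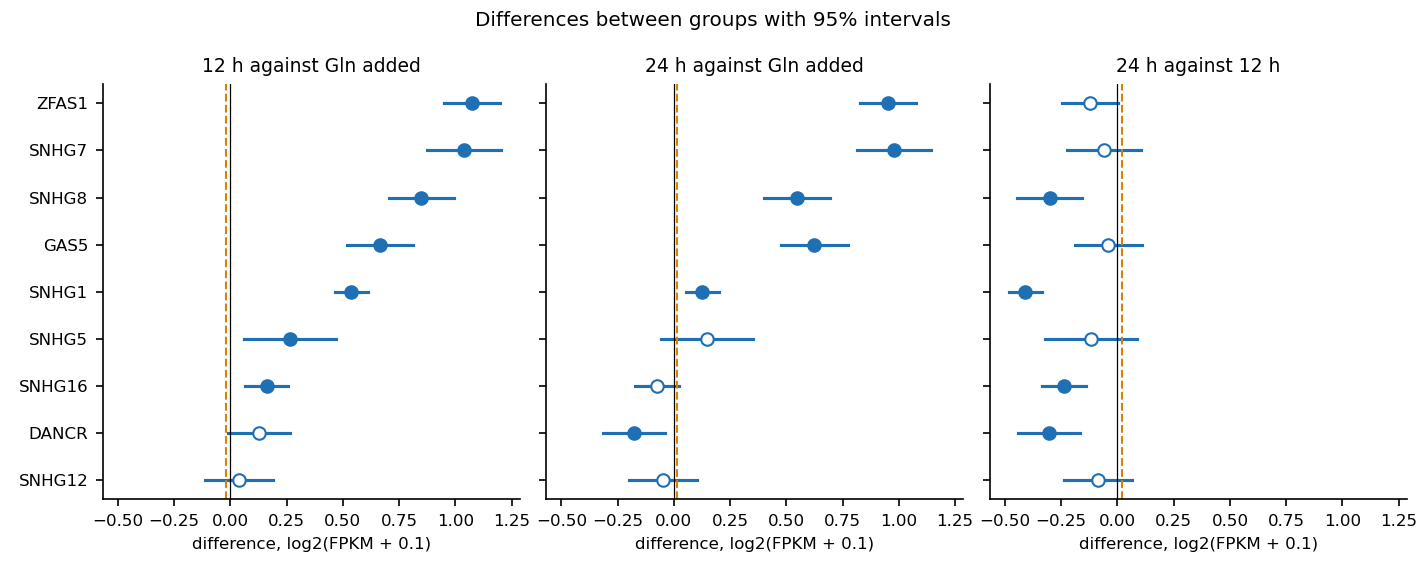
Differences between groups on the log2(FPKM + 0.1) scale (x axis) for the 9 tested hosts (y axis, ordered by the 12 h difference), with 95% intervals; filled points passed adjusted p under 0.05, the black line marks 0 and the dashed line the median of all tested genes. Filled points lie to the right for 7 hosts at 12 h and 5 at 24 h, DANCR lies to the left at 24 h, and 4 hosts lie to the left between 24 h and 12 h.

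Over the 9 libraries, the log2(FPKM + 0.1) values of SNHG7 and ZFAS1 (Pearson r = 0.99), GAS5 and ZFAS1 (r = 0.988) and GAS5 and SNHG7 (r = 0.985) ran most closely together. SNHG16 and DANCR had r = 0.88, and SNHG7 and DANCR the lowest value of all pairs, r = 0.015. These values describe 9 libraries in 3 groups, which share depth and group differences. By the same measure, the 5 genes most like GAS5 among 5104 others whose mean reached 10 FPKM were SELENOS (r = 0.995), ALKBH3 (r = 0.994), GHITM (r = 0.99), PLRG1 (r = 0.99) and SNHG32 (r = 0.988). SNHG32 is itself a snoRNA host. The genes most like the mean of the 9 standardised hosts were RPL22L1 (r = 0.977), EEF1D (r = 0.976), ACBD6 (r = 0.975), ILVBL (r = 0.97) and PAK1IP1 (r = 0.968).

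Over all tested genes, 29.1% were called higher and 31.0% lower at 12 h, and 33.0% and 31.7% at 24 h. These shares are the background of the counts in the lists below. Other noncoding hosts went both ways. Of 17 tested, 8 rose and 2 fell at 12 h (median 0.10 on the log2 scale), and 6 rose and 4 fell at 24 h (median 0.02). SNHG32 rose from 86.1 ± 3.63 FPKM to 160.3 ± 5.20 at 12 h and 150.2 ± 13.5 at 24 h (log2 differences 0.90 and 0.80, adjusted p = 5.88e-07 and 9.46e-07). EPB41L4A-AS1 rose by 0.80 and 0.69, SNHG20 by 0.74 and 0.92, SNHG17 by 0.57 and 0.52 and SNHG29 by 0.41 and 0.39 on that scale at the earlier and the later time. SNHG14 fell at both times (-0.35 and -0.38). SNHG19, SNHG26 and SNHG4 fell at 24 h (-0.41, -0.41 and -0.24, limma adjusted p = 0.00743, 0.0156 and 0.0137) and were not called at 12 h. Between 24 h and 12 h, 4 of the 17 were lower (SNHG3, SNHG4, SNHG19 and SNHG26) and 1 was higher (SNHG9). By limma voom, 3 were lower and 0 higher. The shares over all tested genes were 10.5% lower and 9.57% higher. SNHG9, with 9 to 37 fragments in a library, fell at 12 h (-1.27, adjusted p = 0.000509), and its value at 24 h was -0.33 (adjusted p = 0.206). SNHG3 stood at 40.5 ± 0.797 FPKM with Gln, 51.0 ± 0.191 FPKM at 12 h and 40.9 ± 0.606 FPKM at 24 h, and its 12 h level was higher than both others (adjusted p = 7.11e-06 and 9.02e-05). SNHG17, SNHG29, SNHG14, SNHG19, SNHG26, SNHG4, SNHG9 and SNHG3 were named after their values were seen.

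Of 48 protein-coding hosts tested, 13 rose and 7 fell at 12 h and 14 rose and 11 fell at 24 h. The medians were 0.04 and 0.03 on the log2 scale. The shares called were 41.7% and 52.1%, against 60.2% and 64.7% of all tested genes. The 26 hosts among them that are ribosomal protein genes had 2 higher and 2 lower at 12 h and 5 of each at 24 h, and the other 22 had 11 higher and 5 lower at 12 h and 9 and 6 at 24 h. PPAN, a ribosome biogenesis factor, rose from 1.25 to 2.71 and 2.43 FPKM. EEF2, the elongation factor that moves the ribosome along the mRNA, rose by 0.40 and 0.46 on the log2 scale, and HSPA8, the constitutive HSP70 chaperone, fell by 1.01 and 0.66 on that scale (adjusted p = 6.11e-09 and 8.52e-08).

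The mRNAs of cytosolic ribosomal proteins, which share the oligopyrimidine start with several hosts, had medians of 0.00 at 12 h and 0.03 at 24 h. Of 78 tested, 2 rose and 7 fell at 12 h (12 and 6 by limma voom on recovered fragments), and 12 rose and 14 fell at 24 h. Between 24 h and 12 h none passed the test by limma, 5 had an unadjusted p under 0.05, and voom called 3. RPS26 was the outlying member, at 156 ± 3.66 FPKM with Gln, 68.0 ± 1.62 FPKM at 12 h and 63.5 ± 7.43 FPKM at 24 h. RPL8 (522 ± 5.54 FPKM with Gln, 441 ± 29.4 FPKM at 24 h) and RPS10 (4.79 ± 0.975 and 3.58 ± 0.444 FPKM) fell at 24 h by 0.25 and 0.40 on the log2 scale. The call of RPS10 (adjusted p = 0.0304) was lost without Gln-added replicate 1, Gln-added replicate 3 or 24 h replicate 3 (adjusted p = 0.121, 0.103 and 0.118), and also with no filter (0.0825), with FPKM rescaled to the same total (0.052) and by voom (0.0615).

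Of 15 genes of NMD, 10 rose and 1 fell at 12 h and 8 rose and 1 fell at 24 h, with medians of 0.16 and 0.13. UPF3B, which links UPF2 to the exon junction complex, rose from 3.74 ± 0.0875 FPKM to 5.84 ± 0.417 FPKM at 12 h and 5.53 ± 0.559 FPKM at 24 h. CASC3, a component of that complex, rose by 0.41 and 0.42 on the log2 scale, and MAGOHB, another one, fell by 0.45 and 0.59 on that scale. In decapping and 5′ decay, 4 of 10 genes rose at each time, while 1 fell at 12 h and 3 at 24 h. XRN1, the 5′ to 3′ exonuclease that degrades decapped RNA, was at 2.73 ± 0.0439 FPKM with Gln, 3.26 ± 0.325 FPKM at 12 h (adjusted p = 0.0532) and 4.14 ± 0.522 FPKM at 24 h (adjusted p = 0.000391), and its 12 h difference passed the test under 5 other settings (same total, median-ratio scaling, the 2 groups alone, the replicate number as a block and voom, adjusted p = 0.0359, 0.0343, 0.028, 0.0404 and 0.0195) and without 12 h replicate 2, 24 h replicate 1 or 24 h replicate 3. EDC3 and DCP1A, which act in decapping, rose by 0.42 and 0.29 on the log2 scale at 24 h. Of 12 exosome genes, 3 rose and 3 fell at 12 h and 2 rose and 3 fell at 24 h; EXOSC2 and EXOSC9 fell by 0.56 and 0.51 on the log2 scale and EXOSC1 rose by 0.22 at 24 h.

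The proteins that snoRNAs assemble with did not move one way. Of 8 snoRNP proteins, 3 rose and 3 fell at 12 h and 2 rose and 3 fell at 24 h. Of the H/ACA proteins, NHP2 fell from 85.3 ± 1.18 FPKM to 58.3 ± 4.001 FPKM at 12 h and 55.3 ± 4.33 FPKM at 24 h, NOP10 fell by 0.27 and 0.46 on the log2 scale, and GAR1 rose from 24.9 ± 2.18 FPKM to 35.9 ± 1.37 and 34.0 ± 0.906 FPKM. Of 9 assembly factors, 1 rose and 2 fell at 12 h. At 24 h 2 rose and 5 fell, where NAF1, NUFIP1 and SHQ1 fell by 0.40, 0.34 and 0.33 on the log2 scale. The 2 that fell at 12 h were NAF1 and SHQ1 (limma adjusted p = 0.0249 and 0.0243). Both lost this call with no filter (0.0504 and 0.0577). Both also lost it without Gln-added replicate 3 (0.091 and 0.0671) or 12 h replicate 2 (0.0767 and 0.0934).

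Of 18 mRNAs of the integrated stress response, 16 rose at 12 h and 17 at 24 h, and all 18 values were above 0 at both times, with medians of 1.26 and 1.31. ASNS, asparagine synthetase, rose from 0.128 ± 0.00363 FPKM to 1.81 ± 0.175 FPKM at 12 h and 1.43 ± 0.168 FPKM at 24 h. Its Gln-added values rest on 14 to 15 fragments in a library. The size of its 12 h log2 difference (3.06) depended on the method, with 1.31 at a pseudocount of 1 and 3.78 by voom. PPP1R15A, the eIF2 alpha phosphatase subunit GADD34, rose from 6.59 ± 0.280 FPKM to 28.3 ± 1.12 and 29.7 ± 0.389 FPKM, and TRIB3, a pseudokinase induced by ATF4, from 64.3 ± 1.48 FPKM to 262 ± 13.8 and 251 ± 10.2 FPKM. The largest differences of the hosts (1.07 for ZFAS1 and 1.04 for SNHG7 at 12 h) were below the median of this list at 12 h.

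**Figure D4:**
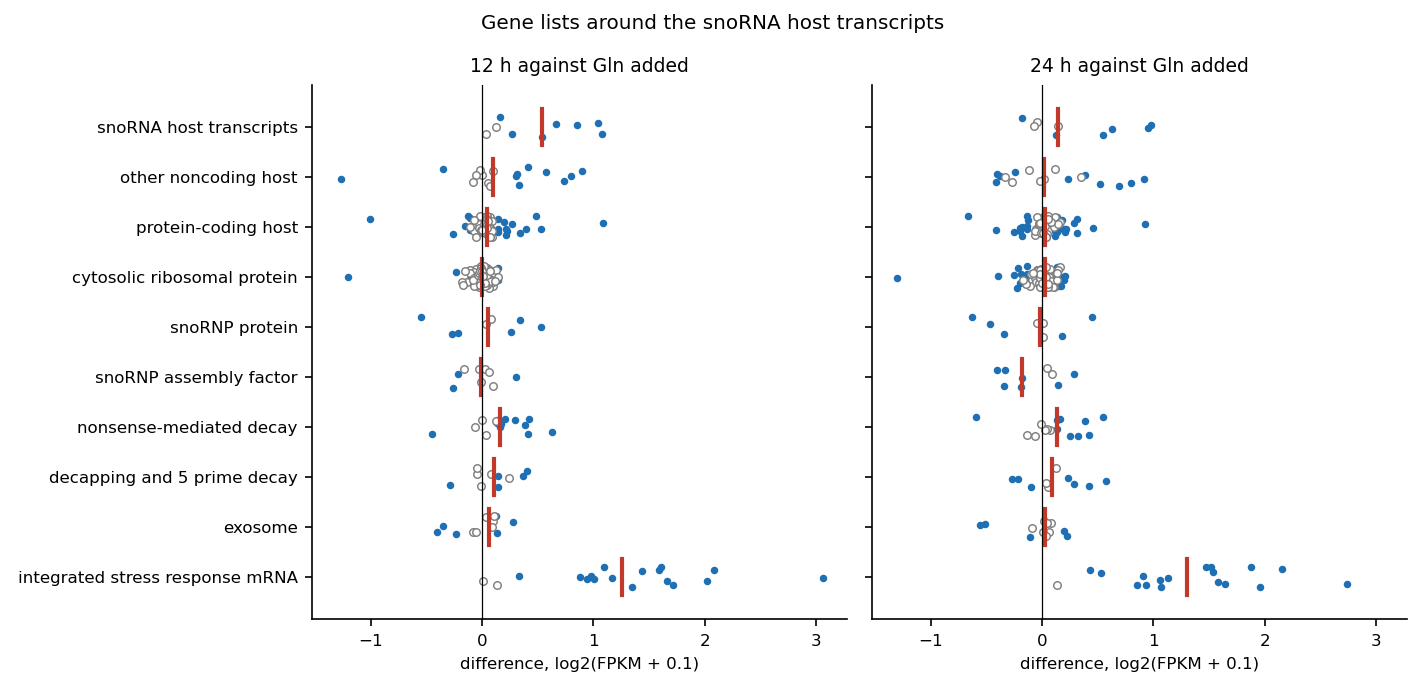
Differences from Gln-added cells on the log2(FPKM + 0.1) scale (x axis) at 12 h (left) and 24 h (right), with 1 point per tested gene in each list (y axis); blue points passed adjusted p under 0.05, open points did not, and red bars mark the median of the list. The 9 snoRNA hosts spread from 0.04 to 1.07 at 12 h, the ribosomal protein mRNAs lie close to 0 except RPS26, and the integrated stress response list has its median at 1.26.

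Some neighbours share sequence or a start region with a host. By the GENCODE canonical transcripts, 22.9% of the exonic bases of SNHG7 (539 bases) are also exonic in DIPK1B on the opposite strand. For SNHG8 the share is 40.3% (2487 bases, in PRSS12), and 8 bases of SNHG12 are shared with TRNAU1AP. The canonical SNHG8 transcript has 6166 exonic bases, against 619 bases solved from the FPKM values. Its share therefore need not hold for the gene behind these values. Because the kit named in the methods keeps strand while the labels name another kit, it is not settled that reads from opposite strands were told apart. DIPK1B stood at 0.0776 ± 0.0157 FPKM with Gln and 0.135 ± 0.0662 FPKM at 24 h, and PRSS12 at no more than 0.00678 FPKM as a group mean, both far below the hosts. The log2 differences of TRNAU1AP were -0.01 and 0.01. ZNFX1, whose start lies 248 bases from that of ZFAS1, rose from 5.78 ± 0.278 FPKM to 8.66 ± 0.114 FPKM at 12 h and 9.71 ± 0.124 FPKM at 24 h (log2 differences 0.58 and 0.74, adjusted p = 2.21e-06 and 2.24e-07). It was higher at 24 h than at 12 h (0.16, adjusted p = 0.0332), where ZFAS1 had a value of -0.12. ZBTB37, whose start lies 800 bases from that of GAS5, was at 0.489 ± 0.0356 FPKM with Gln and 0.463 ± 0.0391 FPKM at 24 h and was below the filter on low values. For DANCR, 24.0% of the canonical exonic bases are shared with genes on the opposite strand and 4.12% with a gene on the same strand. None of these genes had a row in the table. The canonical DANCR transcript has 3959 exonic bases, against 1785 bases solved from the FPKM values.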

How the data were processed

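RNA-seq was made by the authors from 9 HepG2 libraries, 3 per group. Per the methods, reads were aligned to GRCh38 with STAR, and the processing notes of the labels list HTSeq and R 3.2.0. The annotation is not given in the sources used here. The deposited values are FPKM, made by the authors for each gene and library with no other scaling stated, and no column of values was left unmatched. From the steps of the FPKM values, whole fragments were recovered for 100% of 22587 genes (tolerance 0.02 fragments). They gave the depths of 29618604 to 36258158 fragments and entered 1 alternative test (limma voom). RNA-seq of TRIB3 knockdown was not analysed here.

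The 11880 genes whose mean reached 0.5 FPKM were tested on log2(FPKM + 0.1) with limma 3.58.1 in R 4.3.3 (eBayes with a trend, all 3 groups in 1 fit), with Benjamini-Hochberg adjustment over all tested genes, two-sided, and called at an adjusted p under 0.05. The pseudocount understates changes of low genes. No exact test of 3 against 3 libraries can go below p = 0.1, so none was used. The procedure was tested on simulated data in which few genes changed, all by the same size, and all genes had the same dispersion. This simulation did not cover differences as small as those of SNHG5 or DANCR. The members and lists were chosen with earlier results of these data known. Genes named from each other list are the 3 called at 24 h with the largest absolute log2 difference and a mean of at least 1 FPKM. Neighbours were named where exons overlap a host or GENCODE gene starts lie within 3000 bases on opposite strands. The distances to neighbours given above are between these gene starts, which need not be the transcript starts shown. Pseudocount, filter, scaling, trend, the samples fitted, the replicate number as a block and each library left out were varied. Host lengths, starts and snoRNAs come from GENCODE, RefSeq (GRCh38.p14) and hg38.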

Additional observations from a re-analysis of the deposited data

Results flagged for a closer look

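In 4 hosts the effect of deprivation differed between the times, by the test of 24 h against 12 h itself (limma, adjusted p under 0.05). The difference, 24 h minus 12 h on the log2(FPKM + 0.1) scale, was -0.41 for SNHG1, -0.30 for SNHG8, -0.24 for SNHG16 and -0.31 for DANCR. Among the other genes named in the report, the same test found HSPA8 at 0.35, NOP10 at -0.20, XRN1 at 0.33 and ZNFX1 at 0.16. Groups of 3 libraries are too small for a test of an outlying library. As a description, 24 h replicate 2 was the lowest of its group in 9 of 9 hosts, against 39.8% of all tested genes.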

How the results depend on the processing

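For the 9 tested hosts, 513 values were recomputed over 19 alternatives: 491 kept their sign and their side of the threshold, 11 lost a call and 8 gained one, 3 uncalled values changed sign and no called value did. The number of hosts called was 6 to 8 at 12 h, 5 to 7 at 24 h and 4 to 6 between 24 h and 12 h. Apart from the left-out libraries named in the report, SNHG5 at 12 h lost its call with no filter (adjusted p = 0.083) and without a trend (0.0539), and DANCR at 24 h lost its call with no filter (0.0629), with FPKM rescaled to the same total (0.0652) and without a trend (0.0504). DANCR at 12 h gained a call with the same total (0.16, adjusted p = 0.0317) and with voom on fragments (0.14, adjusted p = 0.04). The cause was not tested. Values that had not passed the test turned sign without 24 h replicate 2 for SNHG12 at 24 h (range over left-out libraries -0.093 to 0.026) and, between 24 h and 12 h, for GAS5 (-0.091 to 0.045) and SNHG7 (-0.13 to 0.026). TRNAU1AP turned sign at 12 h with the same total (0.024), median-ratio scaling (0.011) and voom (0.0085), at 24 h with median-ratio scaling (-0.004), and had ranges over left-out libraries of -0.094 to 0.045 (12 h) and -0.077 to 0.096 (24 h). With FPKM rescaled to the same total, list medians at 12 h and 24 h were 0.091 and 0.027 for snoRNP proteins (a change of sign at 24 h), 0.023 (a change of sign) and -0.13 for assembly factors, 0.19 and 0.18 for NMD and 0.14 and 0.14 for decapping, and at 24 h 0.076 for the exosome and 1.35 for the integrated stress response.

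The replicate number pairs no samples by the labels. Same-numbered libraries correlated in their deviations by -0.136 to 0.283, over 0.1 in 2 of 9 pairs, and matched best with their own number in 6 of 18 cases. With the number as a replicate block, 7 hosts were called at 12 h, 7 at 24 h and 6 between 24 h and 12 h, and the calls gained were SNHG5 at 24 h (0.15, adjusted p = 0.0057) and, between 24 h and 12 h, SNHG5 (-0.12, adjusted p = 0.0456) and ZFAS1 (-0.12, adjusted p = 0.0237).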
